A study of Arabidopsis thaliana with 2 samples.

Results

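Among the transcripts of Arabidopsis thaliana pollen tubes, 114 were abundant in wild type (WT) and far lower in the drop double mutant. A gene was a member when the deposited table gave it at least 100 FPKM in WT and a drop value below 0.125 of the WT value, that is, more than 8-fold lower. FPKM counts fragments relative to transcript length and library size, so levels of different genes can be set side by side. Of the 33557 genes in the table, 642 had at least 100 FPKM in WT, and 131 of these (20.4%) met the ratio limit. A set of 17 of the 131, among them DUO1 targets and histone, cell cycle and heat shock genes, was left out by name, which leaves the 114. The members were chosen by the WT and drop values themselves, so those values are given below as a description, with no test.

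The series has 1 library per genotype, so no value has a replicate error and "lower" describes these 2 libraries. The WT library carries the label wild type and the other library the genotype label drop1- drop2-. In both, tubes grew semi in vivo: a stigma emasculated for 36 h received 500 to 600 hand-picked grains and was cut off with its style, and tubes that had grown 300 to 400 µm beyond the style were cut away. Tubes from 2 stigmas were pooled in lysis buffer for each Smart-seq2 library of polyadenylated RNA. The treatment text names double mutant grains in the WT sample too, so genotypes rest on the genotype labels. The mutated genes are known here by these labels alone, and their own transcripts were not checked.

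A pollen tube is a single vegetative cell that grows at its tip and carries a pair of sperm cells inside its cytoplasm. RNA from whole tubes therefore mixes transcripts of the vegetative cell with those of the sperm cells. The sperm lineage has its own transcription programme, in which the MYB factor DUO1 activates many germline genes, and its own chromatin. In such a bulk library, fewer cells of a type and less RNA per cell cannot be told apart.

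The scale of the drop column bears on every ratio. Deposited FPKM summed to 2.82 times as much in drop as in WT, and genes of at least 100 FPKM in WT that did not meet the rule had a median drop value of 315% of WT. From the smallest steps of the values, each fragment counted for about 0.136 FPKM kb in WT, against 0.243 in drop. Rescaling the libraries to equal sums, to a median ratio of 1, or to equal sums without the 50 highest genes lowered the drop values. Each of these applied 1 factor to all genes, so they could only move the members further below the ratio limit. Matching quantiles changed both columns by rank, and all 114 members were below the limit there too. The vegetative tube list, 12 genes such as ANX1 and VGD1, summed to 27167 FPKM in WT against 74437 in drop, with 0 of 12 below the ratio limit, so both libraries hold the transcripts that define the labelled tissue.

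Most members had a low value in drop rather than 0. Of the 114, 105 had a drop value above 0 and 9 were listed at 0. Over all 114 the drop value had a median of 4.29% of WT, with quartiles of 2.87% and 5.97%, and 75 lay between 2% and 6.25%. The same median was 1.52% when sums were made equal, 1.99% with a median ratio of 1 and 2.64% with quantiles matched. On the scale log2((drop + 1)/(WT + 1)) the members had a median of -4.42, against 1.28 over all 642 genes and 1.65 over the 511 that did not meet the rule. Together the members summed to 8.62% of WT FPKM and 0.146% of drop FPKM.

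**Figure D1:**
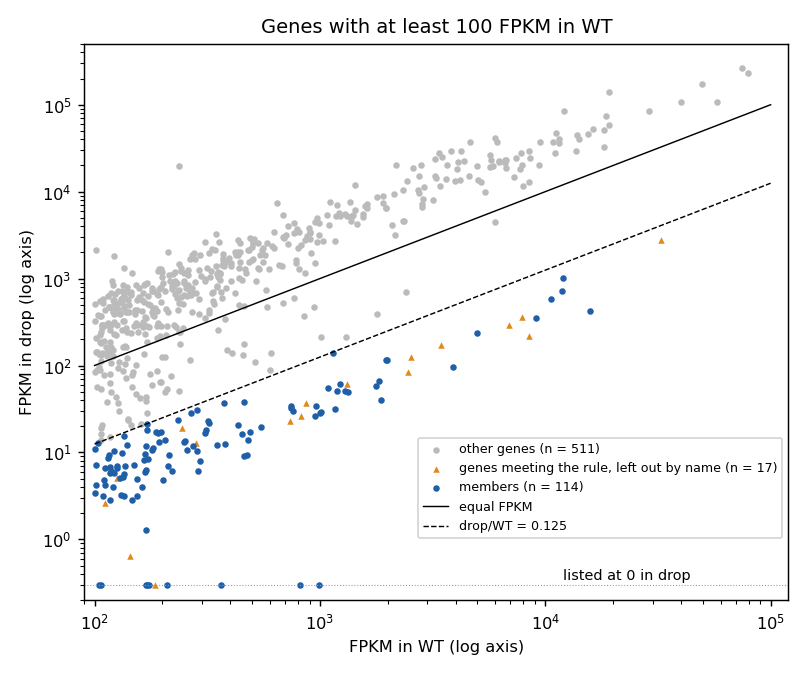
FPKM in WT (x) against FPKM in drop (y), both on log axes, for the 642 genes with at least 100 FPKM in WT, with 1 point per gene and genes listed at 0 in drop drawn on the dotted line. The 114 members (blue) and the 17 genes left out by name (orange) lie in a band below the dashed line, the ratio limit of 0.125, and most of the 511 other genes (grey) lie above the line of equal values.

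The share left in drop was cut by the rule at every WT level and is given by level as a description. Among members above 0 in drop, the median drop value was 4.13% of WT for the 20 members of at least 1000 FPKM, 3.65% for 21 members between 300 and 1000, and 4.97% for 64 members between 100 and 300. The 17 genes left out by name, from 111 to 32693 FPKM in WT, had a median of 4.21%. Most drop values rest on measurable numbers of fragments. By the estimated value of 1 fragment, 39 members had at least 100 fragments in drop, 59 had at least 20 and fewer than 100, and 16 had fewer than 20, the 9 listed at 0 included.

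The ratios of the 642 genes formed a low and a high group with few genes between them. Of the 632 above 0 in drop, 67 had a log2(drop/WT) from -5 to -4 and 28 from -4 to -3. The next bins held 20 genes from -3 to -2, 23 from -2 to -1 and 29 from -1 to 0, and 206 stood between 1 and 2. The ratio limit therefore cuts the edge of the low group rather than a gap.

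**Figure D2:**
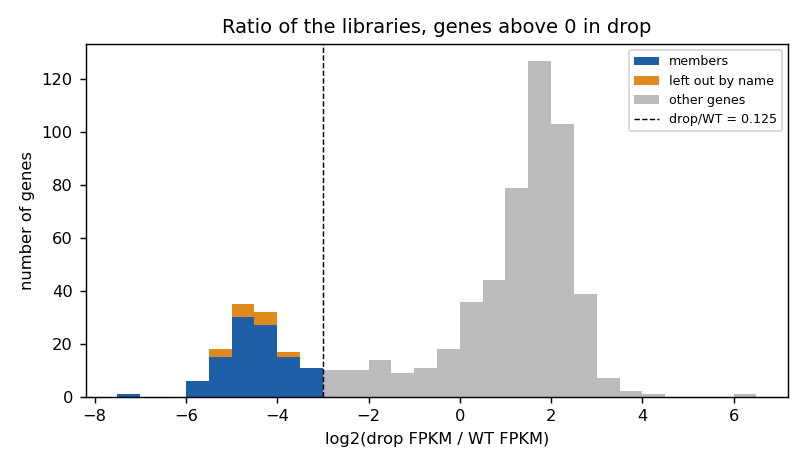
Number of genes (y) by log2(drop FPKM/WT FPKM) in bins of 0.5 (x), for genes with at least 100 FPKM in WT that are above 0 in drop, stacked by set. The members (blue) and the genes left out by name (orange) form a group around a log2 ratio of -4.5, and the other genes (grey) peak between 1 and 2.

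Genes on either side of the limits had like values. The members with the highest remaining share were UNE18 at 12.4% of WT, the protease inhibitor gene AT2G38870 at 12.4%, LARP6a at 12.2%, DSS1(I) at 11.3% and the non-coding gene AT3G12965 at 11.0%. Just outside stood the poly(A) binding protein gene PAB2 at 12.8%, the cleavage complex gene AT1G66500 at 12.8%, AT1G80120 at 13.003%, AT3G10770 at 14.4% and the gamete gene GEX1 at 14.7%. By WT level, the members nearest the limit were AT3G12965 at 100.2 FPKM, CDF1 at 100.6, UBC19 at 101.2, PHR1 at 101.5 and UNE18 at 104. The genes next below it that met the ratio limit were HSP70 at 99.9 FPKM in WT, HVA22D at 98.9, AT5G43620 at 98.1, AT1G47500 at 97.1 and ERD9 at 95.8. Their drop values were 3.96%, 2.58%, 6.998%, 4.52% and 6.42% of WT.

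The most abundant members were among the most abundant transcripts of the WT tube. At 10000 FPKM or more in WT, 4 of 27 genes were members, and at 1000 FPKM or more, 20 of 146. AT4G14315, an uncharacterized protein gene, was at 15734 FPKM in WT against 427 in drop, or 36.9-fold lower, and ranked 14th of all genes in WT and 383rd in drop. AT1G34095 was at 11931 and 1004 FPKM, or 11.9-fold lower, and AT1G75870 at 11886 and 726, or 16.4-fold lower. RefSeq calls the proteins of all 3 genes uncharacterized. AT4G21895, annotated as a DNA binding protein, was at 9104 and 348 FPKM. The 5 most abundant members together made up 52.9% of the members' summed FPKM in WT and 57.8% in drop.

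**Figure D3:**
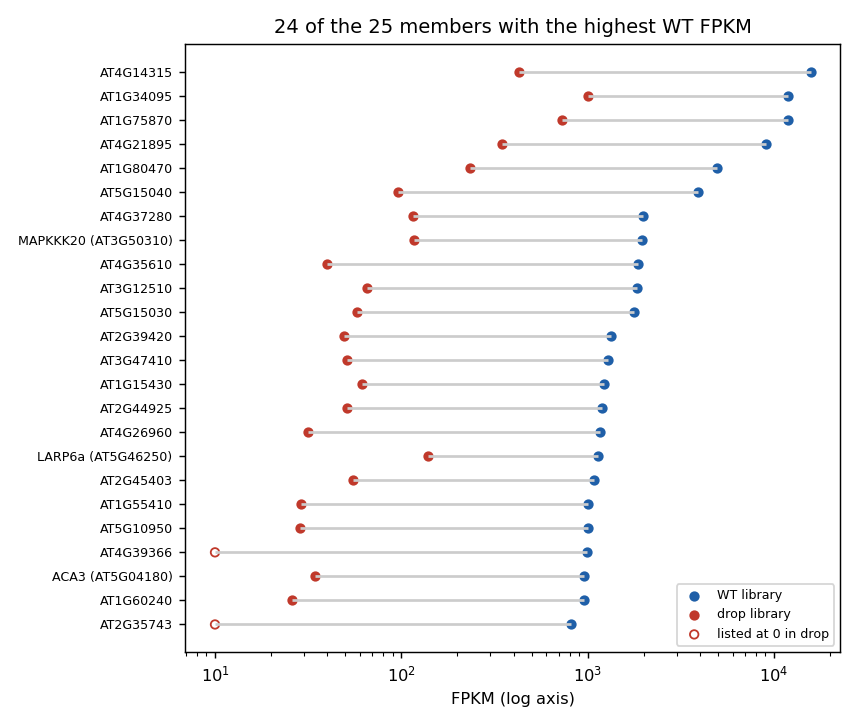
FPKM (x, log axis) of 24 of the 25 members with the highest WT level in the WT library (blue) and the drop library (red), with 1 line per gene. Open circles, drawn at 10 FPKM, are the snoRNA gene AT4G39366 and the pseudogene AT2G35743, which are listed at 0 in drop, and every other gene has its drop point more than 8-fold left of its WT point.

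The stretches before these genes are shown because these 3 genes, the highest members in WT, hold the core bound by DUO1, AACCG or its reverse complement, within 250 bases before the annotated start. Other abundant members lack it: in windows reaching 50 bases past the start, 10 of the 19 protein-coding members of at least 1000 FPKM in WT held it, and AT1G80470 and AT4G37280 did not. The sequences are from the RefSeq genome TAIR10.1, 5′ to 3′ on the strand of the gene, with AACCG and CACGTG on either strand in capitals. They cover chr4:8240597-8240846 (plus strand), chr1:12412515-12412764 (minus strand) and chr1:28485979-28486228 (plus strand).
AT4G14315: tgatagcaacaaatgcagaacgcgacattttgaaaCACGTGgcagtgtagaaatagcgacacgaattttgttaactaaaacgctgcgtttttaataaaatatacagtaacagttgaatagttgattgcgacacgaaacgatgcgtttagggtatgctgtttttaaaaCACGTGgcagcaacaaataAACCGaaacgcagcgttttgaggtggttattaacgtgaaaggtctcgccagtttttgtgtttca
AT1G34095: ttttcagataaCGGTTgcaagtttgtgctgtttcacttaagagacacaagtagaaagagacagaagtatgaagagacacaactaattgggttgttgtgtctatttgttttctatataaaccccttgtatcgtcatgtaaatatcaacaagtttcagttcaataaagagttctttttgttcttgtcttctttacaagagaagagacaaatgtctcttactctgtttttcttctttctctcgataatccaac
AT1G75870: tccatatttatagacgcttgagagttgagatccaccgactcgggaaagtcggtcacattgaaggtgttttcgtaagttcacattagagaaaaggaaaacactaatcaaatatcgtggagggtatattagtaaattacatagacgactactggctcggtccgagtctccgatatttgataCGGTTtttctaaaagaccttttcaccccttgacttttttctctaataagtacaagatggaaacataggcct
The AACCG core begins 64 bases before the start of AT4G14315, 239 before AT1G34095 and 71 before AT1G75870. AT4G14315 also has 2 copies of CACGTG, the G-box core, 215 and 83 bases before its start. The annotated transcript of AT1G34095, at 612 bases for 203 residues, holds coding sequence alone. Its distance is therefore counted from the start codon.

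The core was also frequent before other genes. In windows from 250 bases before to 50 bases after the start, 36 of 106 protein-coding members (34.0%) held AACCG on either strand. It stood in 150 of the 500 protein-coding genes of at least 100 FPKM in WT that did not meet the rule, and in 26.8% of all 27443 protein-coding promoters. Of the 17 genes left out by name, which include 7 annotated DUO1 targets, 13 held it. CACGTG stood in 12.3% of member promoters, 7.80% of those of the other abundant genes and 7.68% of all. The heat shock element GAANNTTC stood in 7.55%, 12.4% and 11.6%, TATAAA in 62.3%, 58.2% and 52.1%, and AGAAA, a pollen element described in tomato, in 82.1%, 91.8% and 88.5%. A match of letters is a description of the window and does not show binding.

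Genes of chromatin and transcription, 18 members, held 23.0% of the members' WT FPKM. Their drop values had a median of 3.87% of WT, from 2.14% to 10.8%. The highest after AT4G21895 was AT5G15040, 1 of a tandem pair of genes for short proteins related to Sin3, a scaffold of histone deacetylase complexes. AT5G15040 was at 3903 FPKM in WT against 95.5 in drop, and its neighbour AT5G15030 at 1774 and 57.6. The pair thus kept 2.45% and 3.25% of WT. Their proteins share 54.7% of 86 aligned residues, while the best match of AT5G15040 outside the pair, the Sin3-like gene SNL2, was at 0.392 FPKM in WT against 0.193 in drop.

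The 250 bases before each gene of the pair are shown because long runs are shared between them. They cover chr5:4869080-4869329 and chr5:4870742-4870991 of TAIR10.1, both on the minus strand, and capitals mark runs of at least 12 bases found in both windows.
AT5G15030: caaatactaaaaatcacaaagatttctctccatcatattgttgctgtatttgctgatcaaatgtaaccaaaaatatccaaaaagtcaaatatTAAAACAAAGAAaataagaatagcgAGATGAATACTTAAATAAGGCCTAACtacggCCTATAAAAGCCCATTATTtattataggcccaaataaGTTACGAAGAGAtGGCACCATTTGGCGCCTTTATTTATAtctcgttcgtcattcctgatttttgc
AT5G15040: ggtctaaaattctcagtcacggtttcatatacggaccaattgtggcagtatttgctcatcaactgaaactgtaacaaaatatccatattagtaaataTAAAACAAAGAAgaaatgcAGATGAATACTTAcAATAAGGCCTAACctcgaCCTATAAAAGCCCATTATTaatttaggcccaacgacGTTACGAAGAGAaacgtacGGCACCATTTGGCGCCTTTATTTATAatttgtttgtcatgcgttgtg
The longest shared run has 26 bases, and shared runs cover 95 of the 250 bases in each window. AACCG stands in the window of AT5G15040, as its reverse complement, and in 0 places of that of AT5G15030.

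Other chromatin members read, write or bind histone marks. AT4G37280, or MRG1, a reader of methylated histone H3 in flowering control, was at 1979 FPKM in WT against 116 in drop. SDG4, a SET domain protein of the histone methyltransferase family, was at 759 and 29.7, and the Tudor/PWWP gene AT5G10950 at 999 and 28.6. The ISWI remodeller CHR17 was at 137 and 6.96, while its close paralog CHR11, with 91.8% identical residues, was at 0.604 and 0.635. The histone gene AT3G09480 was at 116 and 9.37. DNA-binding members included the zinc finger gene AT4G35610 at 1858 and 39.8, whose closest protein is the left-out gene DAZ3, and the MADS-box gene AT3G12510 at 1835 and 65.8. Of the 728 exonic bases of AT3G12510, 723 are shared with AT3G02535, a non-coding gene on the other strand. AT3G02535 was given no FPKM of its own, so the values of AT3G12510 are uncertain. The NAC-type gene AT1G60240 was at 949.9 FPKM and 26.0, the RWP-RK gene AT5G16100 at 549 and 19.7, and SOL1, a relative of the cell division regulator TSO1, at 743 and 34.3. Of the 18, 3 kept more than 8% of WT: AT3G09480 at 8.07%, the HMG and ARID protein gene AT1G04880 at 10.8% and the co-activator gene KIWI at 10.5%.

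Genes of ubiquitin transfer and protein turnover numbered 9, with a median drop value of 4.71% of WT. F-box proteins, which choose the targets of SCF ubiquitin ligases, were the most abundant. AT1G80470 was at 4974 FPKM in WT against 234 in drop, AT1G60410, noted by RefSeq as a paternally expressed imprinted gene, at 742 and 32.6, and AT3G49450 at 295 and 7.90. The pair of E2-C ubiquitin-conjugating enzymes, whose animal relatives serve the anaphase-promoting complex, were both members. UBC20 was at 132 and 3.27 FPKM and UBC19 at 101.2 and 7.18, with 89.0% identical residues. Their transcripts share no stretch of at least 100 bases at 95% identity, though fragments from shorter like stretches may still be shared. Both were thus low in drop, UBC20 at 2.48% and UBC19 at 7.10% of WT. ORTHL, a relative of the methylation readers of the ORTHRUS family, was at 219.7 FPKM in WT against 6.19 in drop, BPM2, a substrate adaptor of CUL3 ligases, at 251 and 13.6, and DSS1(I), a proteasome lid protein, at 135 and 15.3.

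Signalling genes numbered 8, with a median of 5.24% of WT. MAPKKK20, a kinase of the MEKK family whose RefSeq note names it as a target of DUO1, was at 1963 FPKM in WT against 117 in drop, or 16.8-fold lower. The AACCG core of this gene lies just behind its annotated start, within chr3:18649500-18649529 on the minus strand of TAIR10.1, and is shown in capitals.
MAPKKK20: taaggcacaattAACCGtcacgagctacat
Of the 17 genes in the table whose RefSeq note names DUO1, MAPKKK20 was the 1 member, 7 had been left out by name and the other 9 were below 100 FPKM in WT. Its paralog MAPKKK19, with 75.5% identical residues, was at 84.1 and 3.07 FPKM, or 3.65% of WT.

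The phytosulfokine precursors differed among themselves. Phytosulfokine is a secreted, sulfated pentapeptide that promotes cell growth through the receptors PSKR1 and PSKR2. PSK4 was at 285 FPKM in WT against 10.3 in drop, and PSK6 had 169 in WT and 0 in drop. PSK2 was at 49.97 and 34.2 FPKM, PSK5 at 17.4 and 14.6, PSK3 at 16.0 and listed at 0, and PSK1 at 0 in both. Of the 3 precursors at or above 10 FPKM in WT that are not members, 1 was thus below the ratio limit, as were 19.8% of the 2834 genes at that level. PSKR1 was at 0.172 and 0.0775 FPKM and PSKR2 at 0 in both, so receptor transcripts were at or near 0 in either library. The coding sequences around the pentapeptide are shown because the members differ there. Capitals mark its codons, and the sequences are from TAIR10.1 with 15 bases on either side, at chr1:4648562-4648606 (PSK1, plus strand), chr2:9738030-9738074 (PSK2, plus), chr3:16291388-16291432 (PSK3, minus), chr3:18466210-18466254 (PSK4, plus), chr5:26352011-26352055 (PSK5, plus) and chr4:17718964-17719008 (PSK6, minus).
PSK1: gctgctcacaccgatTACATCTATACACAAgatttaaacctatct
PSK2: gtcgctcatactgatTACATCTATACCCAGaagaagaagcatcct
PSK3: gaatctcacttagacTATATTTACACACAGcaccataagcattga
PSK4: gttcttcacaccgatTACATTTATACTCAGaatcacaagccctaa
PSK5: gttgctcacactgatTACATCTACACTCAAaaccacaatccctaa
PSK6: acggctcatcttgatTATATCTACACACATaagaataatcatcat
PSK1 to PSK5 encode the same pentapeptide, and the last codon of the stretch in PSK6 encodes another residue.

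The other signalling members act in calcium, lipid and hormone pathways or in vesicle traffic. PP2CA, a phosphatase that restrains abscisic acid signalling, was at 165 FPKM in WT against 8.15 in drop, and PLC8, of the phospholipase C family, at 129.6 and 5.04. The EF-hand gene AT2G46600 was at 312 and 18.1. RABG3E, a Rab7-type GTPase of late endosome traffic, was at 234 and 23.3 FPKM.

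RNA-binding and translation genes, 12 in all, had the highest median of the roles, 6.19% of WT. LARP6a, of the La-related RNA-binding proteins, was the most abundant at 1137 FPKM in WT against 138 in drop, or 8.23-fold lower. The poly(A)-binding protein gene PAB5 was at 319 and 23.3 FPKM, and PAB7 at 202 and 4.86. ECT10, of the YTH family that binds methylated adenosine in RNA, was at 213 and 6.91, and the Alba gene AT1G20220 at 155 and 3.16. Genes of ribosomes and translation ranged widely in the share left. AT4G31420, or REIL1, a factor of large ribosomal subunit maturation, was at 376 and 37.0 FPKM, the translation factor gene ELF5A-3 at 187 and 17.2, and the ribosomal protein gene AT1G52300 at 191 and 16.7, or 8.72% of WT. The ribosomal protein S18 gene AT1G07210 was at 135 and 5.61 FPKM, or 4.17% of WT.

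Enzymes, lipid proteins and transport proteins were the largest role by number, with 21 members and a median of 4.40% of WT. The alpha/beta-hydrolase gene AT2G39420 was at 1329 FPKM in WT against 49.1 in drop, and AT4G17483 of the same superfamily at 477 and 9.26. ACA3, an alpha carbonic anhydrase, was at 960.4 and 34.5. Lipid genes included ACD11, a sphingolipid transfer protein whose loss triggers cell death in leaves, at 452 and 16.5 FPKM. LPLAT1, which re-acylates lysophospholipids, was at 172 and 8.35, and AAPT2, which makes phosphatidylcholine and phosphatidylethanolamine, at 117 and 2.83. Other members of housekeeping processes were DET3, a subunit of the vacuolar proton pump, at 323 and 21.8 FPKM, and PEX19-1, which brings membrane proteins to peroxisomes, at 196 and 17.1. GlcNAc1pUT1, which makes UDP-N-acetylglucosamine, was at 169 and 11.8, ADNT1, a mitochondrial adenine nucleotide carrier, at 180.2 and 10.8, and PHR1, the photolyase that repairs ultraviolet damage of DNA, at 101.5 and 4.27. AT5G66230 was at 460.2 and 9.11 FPKM, and it shares 654 exonic bases on the same strand with AT5G66220, at 0 in WT and at 7.38 in drop, so the values of this pair are uncertain.

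Stress and wall proteins numbered 10, all below 300 FPKM in WT, with a median of 5.38% of WT. The small heat shock genes AT2G29500 and AT1G54050 had 105.1 and 106 FPKM in WT, and both were listed at 0 in drop. LEA14, of the late embryogenesis abundant proteins, was at 167 and 9.51, the metallothionein gene MT3 at 125 and 6.91, and WIH1, named for a role in forming the female germline, at 122 and 10.4. COBL8, of the COBRA family of wall proteins, was at 125 and 6.58. The thionin-like gene AT1G30972 was at 117 and 6.71 FPKM, but its transcript is 96.5% identical over 260 bases to that of AT1G30974, which was at 177 and 80.7, so fragments may have been divided between them.

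**Figure D4:**
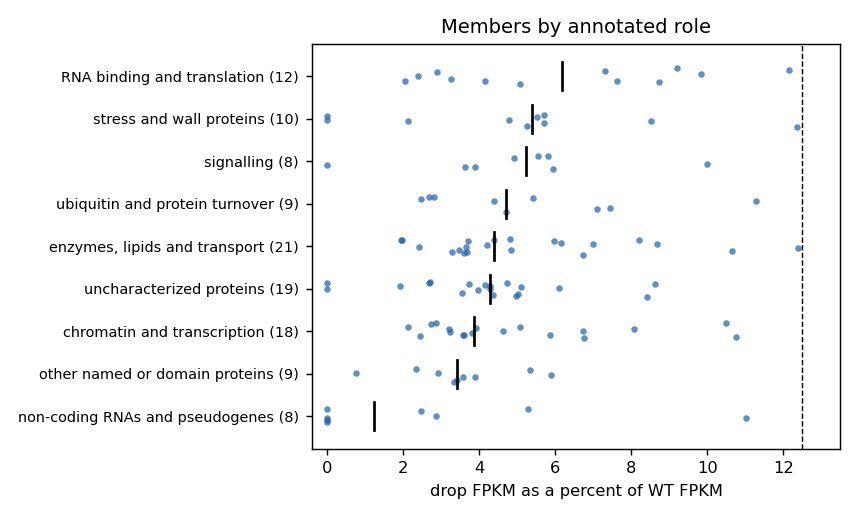
Drop FPKM as a percent of WT FPKM (x) for the 114 members by annotated role (y, number of members in brackets), with 1 point per gene, a bar at the median and the dashed line at the ratio limit of 12.5%. Medians run from 1.23% for non-coding RNAs and pseudogenes, where 4 of 8 are listed at 0, to 6.19% for RNA binding and translation, and the ranges of all roles overlap.

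A further 9 members had other domains or names, with a median of 3.41% of WT. SMAP2, a small acidic protein, was at 169 FPKM in WT against 1.29 in drop, or 131-fold lower, which was the lowest ratio among members above 0 in drop. That drop value rests on about 3 fragments. Its relative SMAP1, which acts in the response to the auxin analogue 2,4-D, was at 6.04 and 5.83 FPKM. AT5G05510, which has the Mad3/BUB1 region of the spindle checkpoint, was at 135 and 3.16. ADF6, an actin depolymerizing factor, was at 134 and 5.22, and the WD40 repeat gene AT1G64610 at 479.8 and 14.03. CDF1, a chaperone-like protein of chloroplasts, was at 100.6 and 3.43.

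At 100 FPKM or more in WT, 10 genes had a drop value of 0, and 9 were members. Non-coding genes and pseudogenes gave 4 of them: the snoRNA gene AT4G39366 at 986 FPKM in WT, the pseudogene AT2G35743 at 816, MIR780 at 174 and the spliceosomal RNA gene U12 at 171. Their annotated transcripts are 120 to 180 bases long. AT2G35743 shares 122 of its 180 bases with the snoRNA gene AT2G08760 on the same strand. AT2G08760 was given no FPKM of its own, so fragments at AT2G35743 may come from either gene. The 5 coding genes were AT3G48660 at 364, AT3G60760 at 209.8, PSK6, AT1G54050 and AT2G29500. Of the 114 members, 6 had annotated transcripts under 300 bases, and the FPKM of such short genes depends on how transcript length was handled. MIR780 is annotated as targeting the cation exchanger gene CHX18, which had 1.39 FPKM in WT and 0 in drop. Its mature sequences, from TAIR10.1 at chr4:8504166-8504186 and chr4:8504145-8504165 on the minus strand, are shown with the seed, bases 2 to 8, in capitals.
miR780.1: uCUAGCAGcuguugagcaggu
miR780.2: uUCUUCGUgaauaucuggcau
These seeds differ, and the deposited value is that of the precursor gene, not of either mature RNA. Among the other non-coding members, the pseudogene AT1G55410 was at 1010.2 FPKM in WT against 28.9 in drop. The pseudogene AT1G50810 was at 162 and 4.01, and its transcript is 97.5% identical over 4074 bases to that of AT2G15650, at 47.5 and 2.86, so fragments may be shared between them.

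Uncharacterized proteins, 19 genes, carried 43.1% of the members' WT FPKM, with a median of 4.28% of WT. Beyond the most abundant genes, AT3G47410 was at 1289.5 FPKM in WT against 51.2 in drop, AT1G15430 at 1231 and 61.2, AT2G44925 at 1189 and 50.9, AT4G26960 at 1171 and 31.4, and AT2G45403 at 1085 and 55.3. Several of these genes are related to each other. AT1G34095 and AT2G45403 share 71.3% of 94 aligned residues, AT4G26960 and AT5G54970 share 58.6% of 116, and AT3G47410 and AT5G62400 share 32.5% of 197. AT5G54970 was at 147 and 2.82 FPKM and AT5G62400 at 139.7 and 12.1, so both genes of each of these pairs were members. The transcript of AT2G45403 is 97.9% identical over 375 bases to that of AT4G11543, which was given no FPKM. Fragments at AT2G45403 may therefore come from either gene.

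The closest relatives of the members ranged from scarce to abundant. Of 106 members with an annotated protein, 92 had a similar protein at another locus and 14 had none at the threshold used. For 10 members the closest protein was that of another member. Of the 78 distinct relatives that did not meet the rule, 28 were below 1 FPKM in both libraries and 24 had at least 10 FPKM in WT. Among these 24, 6 had a drop value below 0.125 of WT, beside 19.8% of all 2834 genes at that level, and 8 had a drop value at or above WT, as did 51.5% of the 2834 genes.

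The rule fixes the members' low values, so the distance to a relative is a description of the relative's level. ACA3 was at 3.59% of WT in drop, while ACA4 was at 310.5 FPKM in WT against 2658 in drop, or 856%. RABG3E was at 9.98%, while RAB7B, with 92.2% identical residues, was at 13.4 and 91.4 FPKM, or 683%. UNE18, an oxysterol-binding protein of the endoplasmic reticulum, was at 12.4%, while ORP3B was at 15.6 and 72.2 FPKM, or 464%. In other families the relatives were low in drop as well. GSTF8, a glutathione transferase, was at 171 and 18.2 FPKM and GSTF2 at 46.5 and listed at 0, and AT1G07400, the relative of the heat shock gene AT2G29500, was at 68.5 and 3.42.

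**Figure D5:**
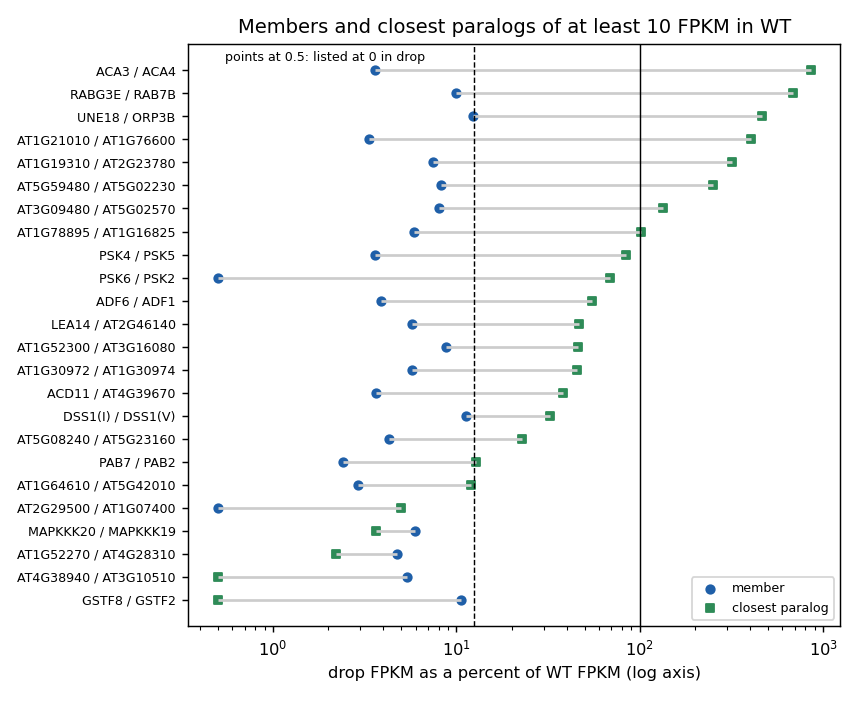
Drop FPKM as a percent of WT FPKM (x, log axis) for the 24 closest relatives with at least 10 FPKM in WT that did not meet the rule (green squares) and the member each belongs to (blue circles), with 1 pair per line. The solid line is 100% and the dashed line 12.5%; 8 relatives lie at or beyond 100%, up to 856% for ACA4, and 6 lie below 12.5%.

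In gene structure the members had longer proteins and fewer single-exon genes than other abundant genes. Their longest annotated transcripts had a median of 1250.0 bases and 3 exons, against 1102 bases and 2 exons for the 504 annotated genes of at least 100 FPKM in WT that did not meet the rule. Proteins had a median of 258.5 residues, against 186.5, and 20.8% of member proteins were shorter than 150 residues, against 37.2%. Genes with a single exon made up 25.4% of members and 33.7% of the others. A gene symbol was lacking for 62.3% of members and 57.9% of the others. The members lay on all 5 chromosomes, with 40 on chromosome 1, 12 on 2, 19 on 3, 16 on 4 and 27 on 5.

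Few genes next to members met the rule. Of 228 distinct neighbours in the table, 5 (2.19%) did, beside 0.390% of all genes in the table: the genes of the Sin3-like pair, another pair of members and the left-out cyclin gene CYCD7;1, which lies 637 bases from UNE18 on the same strand. Of these 5, 4 were members, and each gene of such a pair counted as a neighbour of the other, which adds to the 2.19%. Of the 31 other neighbours with at least 10 FPKM in WT, 6 were below 0.125, where the background is 19.8%. At 1 FPKM or more it was 24 of 79, where the background is 22.3%. Exons of 30 members overlap those of another annotated gene. DSS1(I) shares 126 exonic bases with the tubulin gene TUA1 on the other strand, which was at 278 and 925 FPKM. No source used here says whether fragments were counted by strand, so fragments from such an overlap cannot be assigned to either gene.

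Transcripts that mark the sperm cells were low in drop as well. Of 15 sperm list genes, of which 0 are members, 8 had at least 10 FPKM in WT, and 7 of these were below 0.125, against the background of 19.8%. The exception was GEX1. Each of the 7 rests on fewer than 20 estimated drop fragments, from about 5 for HAP2 to about 14 for GEX3. The median of the 8 was 4.67% of WT. GEX3 was at 34.6 and 1.62 FPKM, TET12 at 44.2 and 1.96 and KPL at 19.6 and 0.771. The list summed to 797 FPKM in WT against 100.2 in drop, of which GEX1 alone gave 602 and 88.7. DUO1 itself was at 8.34 and 0.760 FPKM, and its targets DAZ1 and DAZ2, at 0.249 and 1.51 FPKM in WT, were at 0 in drop. Other low genes of the list kept more: DAW1 was at 13.2% of WT, DMP8 at 28.3% and DUO3, at 0.520 FPKM in WT, at 94.6%. GEX2 was near 0 in WT and at 0.331 FPKM in drop. Which of the members are transcripts of sperm cells cannot be told from these libraries.

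Lists for other tissues gave mixed values. The green tissue list of 7 genes summed to 118 FPKM in WT against 11.9 in drop, with 1 of the 3 genes at or above 10 FPKM in WT below 0.125, where the background is 19.8%. RBCS3B was at 3.85% of WT, PSBO1 at 25.9% and RBCS1A at 28.2%, while LHCB1.1, CAB3 and GAPB, all below 1 FPKM in WT, were at 0 in drop. The style and carpel list of 8 genes summed to 48.1 FPKM in WT against 71.2 in drop, with 0 of 2 genes of at least 1 FPKM in WT below 0.125 and HEC1 and CRC at 0 in both. Of 5 tapetum genes, 4 were at 0 in WT and 5 in drop. The part of green tissue RNA in the members' values was not tested.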

How the data were processed

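The deposited table gives FPKM for each of the 2 libraries, computed by the authors. Per the submitters' processing notes, the tools were Cufflinks 2.2.1 and TopHat2 2.0.14 and the genome TAIR10. Settings, annotation release and any later scaling were not found. As the drop column sums to 2.82 times the WT column, values were also computed under 4 other scalings. These set the sums equal, set the median ratio to 1, matched the quantiles, or set the sums equal after leaving out organelle genes and the 50 genes highest on average (trimmed equal sums).

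With 1 library per genotype no test was run and no p-value computed. The members, gene lists, roles and motifs were chosen with earlier results of these data known. Ratios are of deposited FPKM, and log2 values carry a pseudocount of 1. Any member could be named, the 25 highest in WT, those listed at 0 and those at the limits in full, except 1 member whose values are not reported here. SNL2, CHR11, CHX18, TUA1 and the relatives named were chosen after their values were seen.

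Models and sequences came from RefSeq TAIR10.1, which matched 32810 of 33557 genes. It may differ from the authors' TAIR10. The deposited table holds no coordinates. Fragment numbers are FPKM times the longest annotated transcript over the value of 1 fragment, taken from transcripts of at least 3000.0 bases with 1 annotated form, and are approximate. They cover counting only, since PCR copies were not marked. Relatives are the best other locus in blastp (BLAST+ 2.17.0, e-value 1e-05) of translated coding sequences. Python 3.11.15 and pandas 2.3.3 were used, and the steps were tested on simulated data.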

Additional observations from a re-analysis of the deposited data

How the results depend on the processing

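No paired analysis was possible because there was only 1 library for WT and 1 for drop. The count of 114 was 148 with equal sums, 137 with a median ratio of 1, 130 with matched quantiles and 137 with trimmed equal sums. Equal sums, the median ratio and trimmed equal sums lower all drop values by 1 factor, so the members meet the limit under these by construction. Matched quantiles change both columns by rank, and all 114 members met the limit under them as well. The count was 176 with a WT floor of 50 FPKM, 60 with 200 FPKM and 4725 with no floor. It was 134 with a ratio limit of 0.25, 88 when more than 16-fold lower was asked and 108 without transcripts under 300 bases. The median log2 ratio of -4.42 was -5.68 with equal sums, -5.35 with a median ratio of 1, -5.08 with matched quantiles, -5.36 with trimmed equal sums and -3.52 with a pseudocount of 10, which shrinks low values by construction. With organelle genes and the 50 highest genes left out, the members' share of summed FPKM was 21.0% in WT and 0.463% in drop. Leaving out the bases after the start kept each motif share within 1.5-fold. Depth limits the 16 members with fewer than 20 estimated drop fragments.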
